A study of Mus musculus with 15 samples.

Results

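Glycolysis, the release of lactate and the turnover of glycogen were followed through 39 genes in skeletal muscle of C57BL/6 mice. The 39 genes were chosen by symbol, as enzymes, transporters and regulators of these pathways, and all 39 were found among the 22798 gene symbols of the count table. The choice was made with earlier results of these data known. Shares of calls among the 39, set beside those of all genes, are therefore not independent of the data. The study compared 3 groups of mice, all 12 months old, on a normal diet and sampled after an overnight starvation. They gave 6 libraries from sedentary mice, 6 from mice that exercised and 3 labelled as CD47 knockout (CD47-KO), and no label names another allele or agent. CD47 is a cell-surface receptor for thrombospondin-1. The labels do not say what kind of exercise was used, how the CD47 allele was made, or whether the CD47-KO mice exercised, and they do not say that each library is a separate animal, so p-values measure the spread between libraries, which may be technical.

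Muscle fibres break glucose down in the cytosol through glycolysis, whose last product, pyruvate, is turned into lactate when flux is high. Fast fibres hold large amounts of the glycolytic enzymes, often as muscle isozymes encoded by genes other than those used in most tissues. Glycogen is the fibre's own glucose store: glycogen synthase and branching enzyme build it, glycogen phosphorylase and its kinase break it down, and regulatory subunits bring protein phosphatase 1 to the particle, where it activates the synthase and switches off phosphorylase.

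Total counts ran from 50928458 to 84364189 per library. Levels are given as CPM, a gene's counts scaled to a common library size. Cd47 itself ranged over 11.4 to 16.4 CPM (sedentary), 10.8 to 15.7 CPM (exercise) and 11.5 to 12.1 CPM (CD47-KO), and it was not called lower (log2 fold change -0.26, SE 0.17, edgeR adjusted p = 0.295 against sedentary). After a correction for the GC content of transcripts, described with the results below, it was lower by edgeR (log2 fold change -1.32, adjusted p = 0.00231). In CPM the CD47-KO values lay within the range of both other groups, so the uncorrected counts do not show the knockout. The 3 libraries are named by their label throughout. The share of counts on mitochondrially encoded genes lay between 4.49% and 18.2% among the 12 sedentary and exercise libraries and between 18.1% and 19.2% in those labelled CD47-KO. Of the 12, sedentary library 6 held the highest share, and the next was 12.5% in exercise library 5. For 2 abundant symbols that carry clone names, the shares were 0.88% to 12.2% and 0.0327% to 0.0596%. With mitochondrially encoded genes left out before scaling, 12 members were called against sedentary (5 higher and 7 lower, from 4 and 11) and 17 against exercise (6 and 11, from 3 and 11), and these member counts were the same without the 2 clone-named symbols. Calls over all genes moved too without mitochondrially encoded genes. Against sedentary 2146 higher and 1572 lower became 2386 and 1254, and against exercise 2198 and 1500 became 2446 and 1094.

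The coding starts of 4 members are shown to give a view of base composition, with which the fold changes in CD47-KO libraries varied, as given below. Ppp1r3a and Ugp2 had the smallest adjusted p among members that were higher in CD47-KO libraries, and Eno3 and Pgam2 were among those that were lower. The first 120 coding bases of the longest coding transcript (GENCODE vM21, build GRCm38) are printed with every G and C in capitals. GC content of these 120 bases was 45.0% in Ppp1r3a and 35.0% in Ugp2, against 60.8% in Eno3 and 55.8% in Pgam2. Over the whole coding sequence it was 41.6%, 40.1%, 55% and 56.7% in the same order. These 4 were chosen as examples, and the first 120 bases alone do not separate the called members: they ran from 35.0% to 72.5% GC in the 4 that were higher, with Gbe1 highest, and from 43.3% to 60.8% in the 11 that were lower, with Hk1 and Ldha (45.0%) lowest. Whole coding sequences ran from 40.1% to 45.2% and from 51.6% to 57.6%.
Ppp1r3a: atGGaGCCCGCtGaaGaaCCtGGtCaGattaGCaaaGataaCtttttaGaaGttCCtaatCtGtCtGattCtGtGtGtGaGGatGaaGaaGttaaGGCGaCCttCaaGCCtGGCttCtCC
Ugp2: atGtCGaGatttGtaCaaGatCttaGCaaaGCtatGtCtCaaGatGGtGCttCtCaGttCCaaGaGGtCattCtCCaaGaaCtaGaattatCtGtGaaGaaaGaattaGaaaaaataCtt
Eno3: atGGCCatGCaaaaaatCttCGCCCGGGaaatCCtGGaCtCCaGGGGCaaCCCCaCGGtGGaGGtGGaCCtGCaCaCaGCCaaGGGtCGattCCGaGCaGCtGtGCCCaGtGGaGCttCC
Pgam2: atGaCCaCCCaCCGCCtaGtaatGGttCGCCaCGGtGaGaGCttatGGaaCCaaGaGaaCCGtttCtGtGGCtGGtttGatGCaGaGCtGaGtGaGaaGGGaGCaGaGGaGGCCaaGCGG

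The promoters of 38 of the 39 members were matched in the RefSeq table (build GRCm38.p6), as windows from 250 bases before to 50 bases after the start. Gpd1 had no entry. The 250 bases before the start are printed for the 2 members with the smallest adjusted p on each side in CD47-KO against sedentary libraries. Capitals mark matches, on either strand, to 4 motifs: ACGTG, the core of the hypoxia response element, CACGTG, the E-box of clock and MYC factors, CAGCTG, an E-box of myogenic factors, and TATAAA, the TATA box. CACGTG holds ACGTG, so that a match to the first is also a match to the second. Ppp1r3a lies on the minus strand (chr6:14755275-14755524), as does Ugp2 (chr11:21371268-21371517). Eno1 (chr4:150236458-150236707) and Eno3 (chr11:70656926-70657175) lie on the plus strand.
Ppp1r3a: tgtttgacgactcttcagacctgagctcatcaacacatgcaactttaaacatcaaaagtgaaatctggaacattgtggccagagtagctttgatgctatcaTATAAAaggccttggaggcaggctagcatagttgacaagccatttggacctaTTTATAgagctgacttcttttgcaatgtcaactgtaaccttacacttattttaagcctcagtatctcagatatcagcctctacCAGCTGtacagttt
Ugp2: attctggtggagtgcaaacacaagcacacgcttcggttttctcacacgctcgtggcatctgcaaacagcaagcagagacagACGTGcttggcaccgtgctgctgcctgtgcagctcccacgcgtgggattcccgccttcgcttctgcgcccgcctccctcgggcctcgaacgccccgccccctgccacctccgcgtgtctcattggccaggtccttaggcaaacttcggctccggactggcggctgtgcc
Eno1: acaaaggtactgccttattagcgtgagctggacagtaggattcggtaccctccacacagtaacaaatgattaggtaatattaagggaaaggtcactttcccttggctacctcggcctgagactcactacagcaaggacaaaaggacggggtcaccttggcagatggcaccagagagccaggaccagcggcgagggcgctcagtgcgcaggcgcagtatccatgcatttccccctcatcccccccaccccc
Eno3: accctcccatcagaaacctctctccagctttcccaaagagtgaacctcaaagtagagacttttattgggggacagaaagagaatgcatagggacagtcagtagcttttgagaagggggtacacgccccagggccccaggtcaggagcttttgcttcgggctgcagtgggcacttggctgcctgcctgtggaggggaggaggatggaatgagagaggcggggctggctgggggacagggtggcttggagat

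Over the 300-base windows, ACGTG was found in 17 of 38 members (44.7%) and in 19.6% of all 32851 windows. CACGTG was found in 7 members (18.4%, against 7.15% of all windows) and CAGCTG in 12 (31.6%, against 16.3%). TATAAA was found in 1 member (2.63%, against 13.6%), which was Ppp1r3a. Of the members called in CD47-KO against sedentary libraries, ACGTG was in 1 of 4 that were higher and 2 of 10 that were lower. The windows of members had a median GC content of 59.5%, against 52.7% for all windows, and no motif share was adjusted for composition. Members that were higher and lower overlapped in promoter GC content (41.0% to 73.3%, n = 4, and 51.3% to 67.3%, n = 10), unlike in their transcripts, given below.

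Before any comparison, the levels show which isozymes this muscle used. Levels between genes are given as CPM per kb of transcript. In sedentary libraries Aldoa, muscle aldolase, stood highest at 12249.0 CPM per kb ± 4580.1 (SD, n = 6), followed by Pygm, muscle glycogen phosphorylase, at 3674.1 ± 1164.5, and Eno3, muscle enolase, at 3276.9 ± 705. Pygm and Eno3 differed by less than their spread. The same 3 genes led in the other groups, and in CD47-KO libraries they stood at 6981.0 ± 1476.1, 2365.7 ± 579 and 1554.4 ± 329 CPM per kb (SD, n = 3). Pfkm, Pkm and Ldha followed each other closely in sedentary libraries, at 1481.6 ± 342, 1426.2 ± 312 and 1417.0 ± 320 CPM per kb (SD, n = 6), and their order is not resolved by the spread. Aldoc, the brain aldolase, was lowest in every group, at 0.051, 0.13 and 0.0467 CPM per kb, with no count in 3 sedentary libraries.

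For most of these enzymes the muscle form made up nearly all of the family's CPM per kb in every library. Across the 15 libraries Pfkm, muscle phosphofructokinase, held 99.5% to 99.9%, Pgam2, muscle phosphoglycerate mutase, 99.5% to 99.9%, Eno3 97.9% to 99.1%, and Pygm 99.8% to 100%. Hk2, the insulin-responsive hexokinase, held 91.4% to 98.5% of the hexokinase pair with Hk1. Ldha, whose subunit favours lactate formation, held 65.7% to 98.5% of the pair with Ldhb, the form of oxidative fibres and heart. The lowest Ldha shares were 65.9% in the sedentary and 65.7% in the CD47-KO group. Slc16a3, the monocarboxylate transporter MCT4 that exports lactate from fast fibres, held 73.7% to 96.5% of the pair with Slc16a1, which encodes MCT1.

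**Figure D1:**
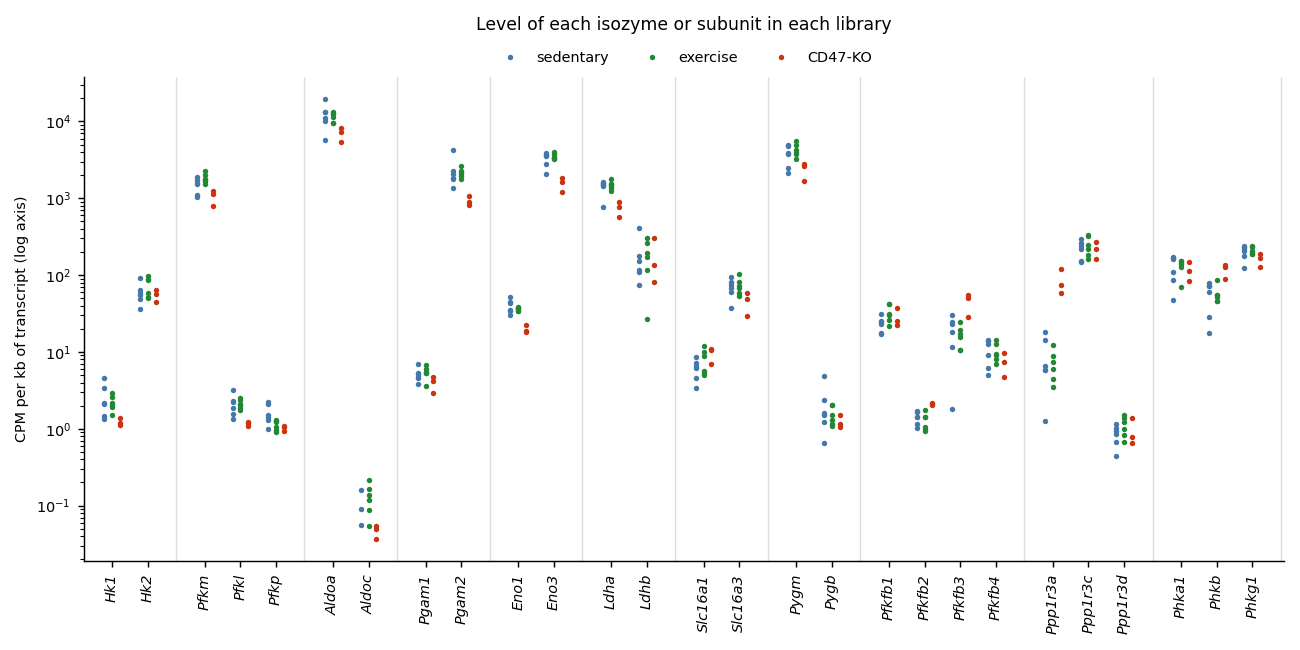
Each point is the level of 1 gene in 1 library, in CPM per kb of transcript on a log axis, grouped by enzyme family or complex and coloured by group (6 sedentary, 6 exercise, 3 CD47-KO). The 3 sedentary libraries with no Aldoc count cannot be drawn. The muscle forms Pfkm, Aldoa, Pgam2, Eno3 and Pygm stand far above their partners in every library, and Ppp1r3a in CD47-KO libraries stands apart from the other 12.

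Most of the shares were alike in the 3 groups, but those of regulatory subunits and of the enzymes of fructose 2,6-bisphosphate were not. Of the 3 glycogen-targeting subunits of protein phosphatase 1, Ppp1r3a held 0.86% to 7.5% in sedentary and 1.04% to 6.2% in exercise libraries, and 25.6% to 30.9% in CD47-KO libraries. Of the 3 phosphorylase kinase subunits measured here, Phkb held 9.39% to 16.5%, 11.9% to 18% and 27.2% to 31.5% in the same order. Of the 4 bifunctional enzymes that make and degrade fructose 2,6-bisphosphate, Pfkfb3 held 6.73% to 45.1%, 16.9% to 32.8% and 49.4% to 58.9%. In these 3 cases the CD47-KO libraries lay above all others. The shares were not tested and not corrected for GC content. Ppp1r3a (36.7%) and Phkb (43.3%) have the lowest transcript GC content of the genes they were compared with. Pfkfb3 (50.2%) does not, since Pfkfb2 has 45.3%.

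In CD47-KO libraries 9 of the 16 enzymes of the first and later steps of glycolysis, and 2 of 6 genes of lactate and glycerol phosphate, were called lower than in sedentary muscle. In whole muscle, fewer fibres of a type and less RNA per fibre cannot be told apart. A gene is called here when its edgeR adjusted p is below 0.05. All 39 members passed the filter on low counts. Of the 39, 11 were called lower (28.2%), beside 8.75% of all 17975 genes tested, and 4, all of glycogen metabolism, were called higher (10.3%), beside 11.9% of all genes, so that the share of higher calls was near that of all genes. The members' median log2 fold change was -0.37, that of all genes -0.11. Against exercise libraries 11 members were called lower (28.2%, beside 8.34% of all genes) and 3 higher (7.69%, beside 12.2%), with a median log2 fold change of -0.47, that of all genes being -0.08. The split moved with the scaling: against sedentary the 4 higher and 11 lower became 4 and 9 with RLE factors and 4 and 7 with total counts alone, against exercise it was 6 higher and 11 lower with RLE factors and 5 and 10 with total counts alone. Over all genes against sedentary 2146 higher and 1572 lower became 2246 and 1007 with total counts alone. The 2 comparisons share the CD47-KO libraries.

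These calls moved with the GC content of the transcripts. Members that were higher against sedentary had transcripts of 36.7% to 43.3% GC (n = 4), members that were lower 51.5% to 57.7% (n = 11), and these ranges do not overlap. Across genes, which are not independent replicates, Spearman's rho of log2 fold change with GC content was -0.809 for the 39 members and -0.669 for the 10683 genes with a mean over 2 CPM. In exercise against sedentary libraries the same rho was -0.081 for the members and 0.0237 for the 10683 genes. Set against genes in the same bin of GC content (bins 2 percentage points wide), 12 of 39 members (30.8%) lay below the middle 50% of genes in CD47-KO against sedentary libraries, where 25% of all genes lie, and 5 (12.8%, beside 25.1% of all genes) lay above it: Ppp1r3a, Pfkfb3, Ldhb, Gyg and Ppp1r3d. Against exercise 18 (46.2%, beside 25%) lay below and 4 (10.3%, beside 25%) above. When each library's trend of log2 CPM on transcript GC content was taken out before the test, 1 member was called higher against sedentary (beside 3.95% of all genes) and 0 lower (beside 4.37%). Against exercise it was also 1 higher (beside 4.79%) and 0 lower (beside 3.84%). At an unadjusted p below 0.05 the corrected edgeR fits held 11 and 10 of the 39 members (28.2% and 25.6%), beside 22.5% and 22.2% of all genes. The member called in both was Ppp1r3a. The cause of the relation with GC content was not tested.

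**Figure D2:**
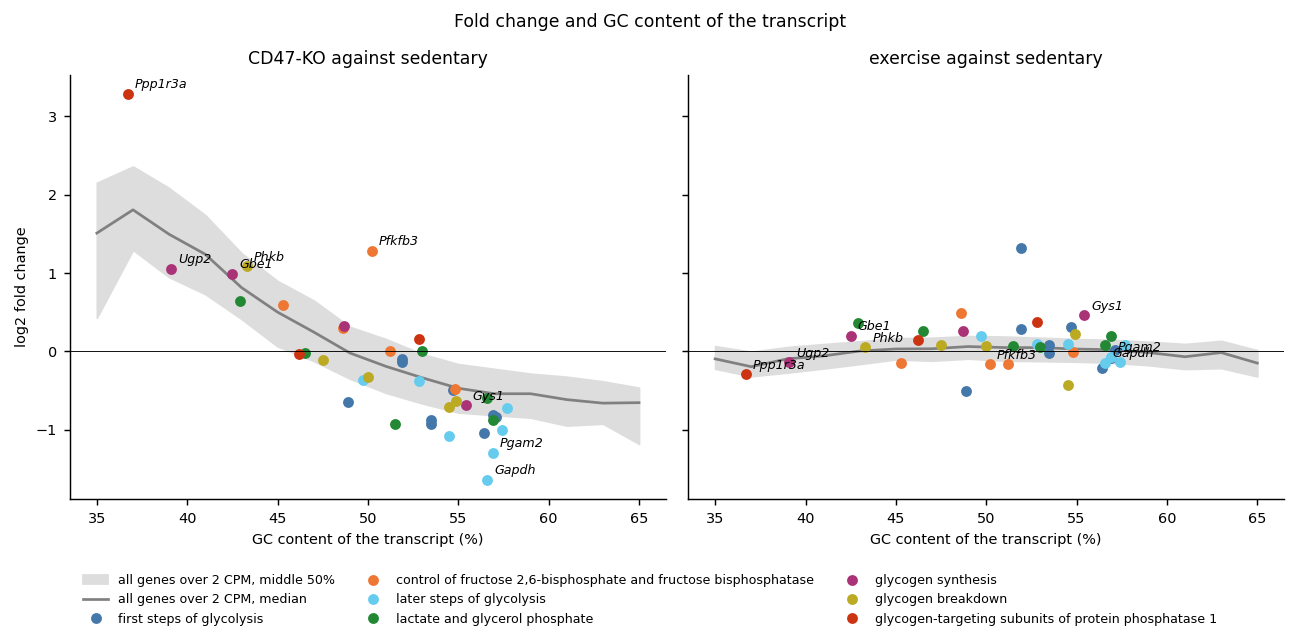
Each point is 1 of the 39 members, at the GC content of its longest protein-coding transcript (%) and its log2 fold change by edgeR, coloured by role, for CD47-KO against sedentary and exercise against sedentary libraries. The grey line is the median of all genes over 2 CPM in bins of GC content, and the band holds the middle 50% of genes. In the first panel most members fall with the line, and Ppp1r3a and Pfkfb3 lie furthest above it, while in the second the line is nearly flat.

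The calls of members, like those of all genes, also moved when single libraries were left out. Against sedentary the members called fell from 15 to 6, 5 and 8 without CD47-KO library 1, 2 and 3. All genes called fell from 3718 to 2361, 2244 and 2178 in the same order. Without sedentary library 2 it was 10 members and 3357 genes. Against exercise the members called fell from 14 to 5, 7 and 9 without the same CD47-KO libraries. All genes called fell from 3698 to 2488, 2292 and 2329. When only the groups compared entered the fit, 6 members were called against sedentary (3 higher and 3 lower), beside 2647 genes. Against exercise it was 21 members (6 higher and 15 lower), beside 4782 genes. Among the CD47-KO libraries, number 2 had the lowest CPM for 25 of the 39 members and number 3 the highest for 29. In the sedentary group number 1 had the lowest for 19. Ppp1r3a, Ugp2, Eno1, Eno3 and Pgam2 kept their call against sedentary in all 15 fits that left out 1 library, and the first 4 of them did so against exercise.

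**Figure D3:**
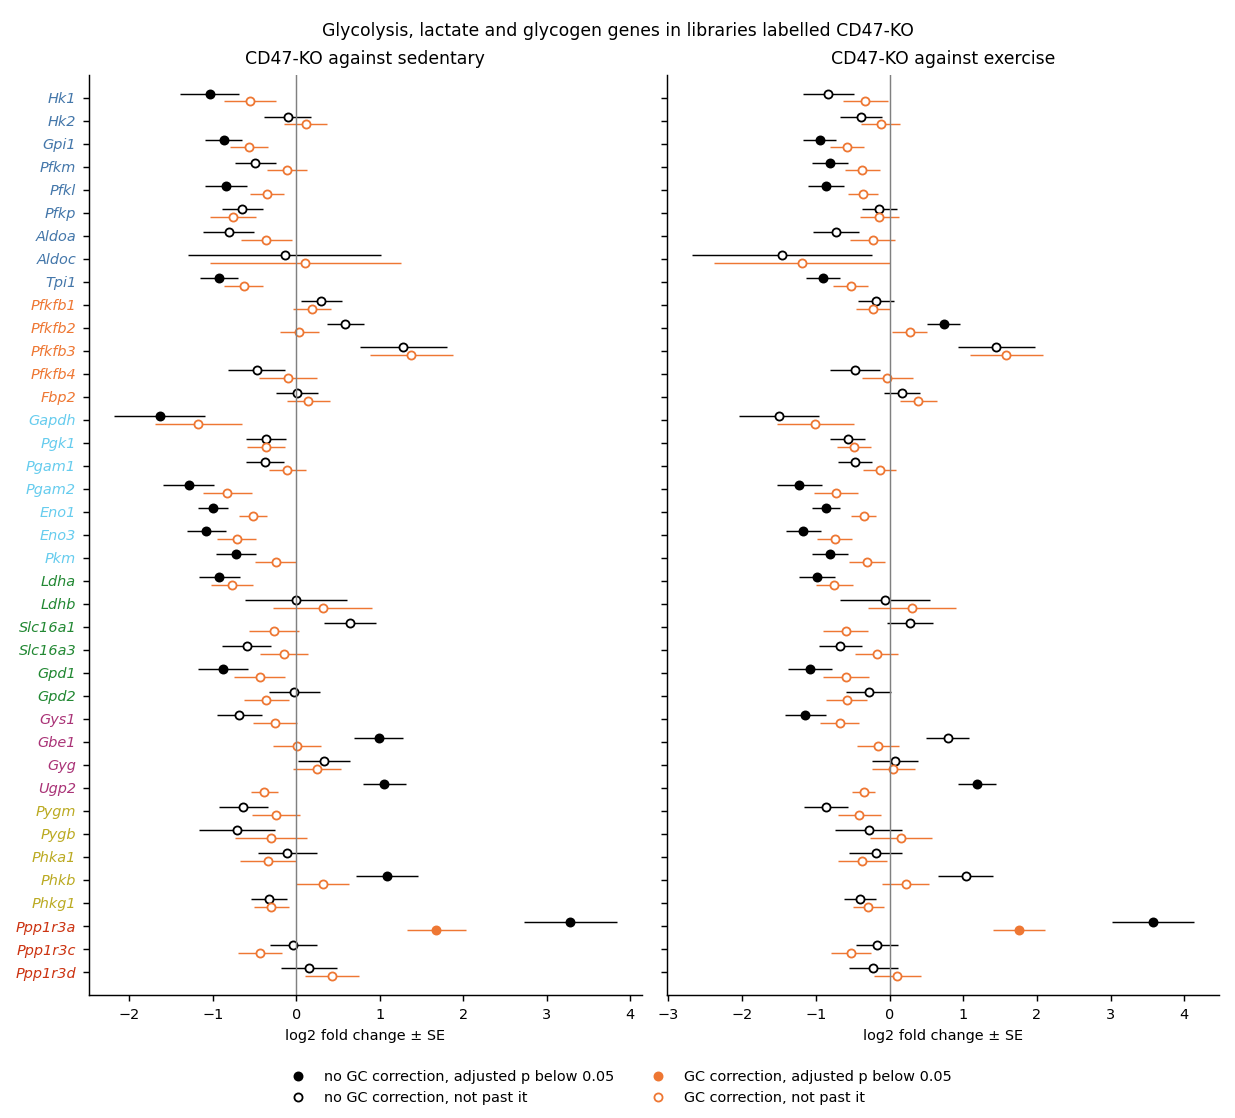
Points are log2 fold changes with their SE from edgeR for the 39 members, ordered and coloured by role, in CD47-KO against sedentary and against exercise libraries. Black points have no GC correction and orange points have it, and filled points have an adjusted p below 0.05. With the correction the 15 and 14 called members draw toward 0 and Ppp1r3a, at 1.68 and 1.76, is the filled orange point in each panel.

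The first steps of glycolysis, from hexokinase to triose phosphate isomerase, hold 9 members, of which 4 were called lower and none higher against sedentary (median log2 fold change -0.81). Their summed CPM ran from 14544.3 to 38164.0 (sedentary), 22636.9 to 30104.8 (exercise) and 12304.8 to 18019.0 (CD47-KO). Tpi1, triose phosphate isomerase, ran from 1170.4 to 2430.9 CPM in sedentary (median 2008.1) and from 1619.4 to 2097.3 in exercise libraries (median 1816.2), and stood at 950, 831 and 1206.7 in CD47-KO libraries. Sedentary library 1 fell among the CD47-KO values, and all other sedentary and exercise libraries lay above them. The log2 fold change was -0.92 (SE 0.23, edgeR adjusted p = 0.00958) against sedentary and -0.90 (SE 0.23, adjusted p = 0.0106) against exercise. Gpi1, glucose 6-phosphate isomerase, ran from 955 to 1791 CPM in sedentary (median 1050.9) and from 1094.8 to 1434.3 in exercise libraries (median 1300.6), and stood at 643, 611 and 737 in CD47-KO libraries. All CD47-KO libraries lay below all others. edgeR gave a log2 fold change of -0.87 (SE 0.22, edgeR adjusted p = 0.0117) against sedentary and -0.95 (SE 0.23, adjusted p = 0.00681) against exercise. Both genes lost their call against sedentary without CD47-KO library 1 or 2 (adjusted p up to 0.0659 for Tpi1 and 0.0737 for Gpi1), and both had an adjusted p above 0.05 with the GC correction (0.116 and 0.151).

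Pfkl and Hk1, the liver form of phosphofructokinase and the hexokinase of most tissues, are minor forms in this muscle. Pfkl ran from 4.99 to 12.0 CPM in sedentary (median 7.68) and from 6.49 to 9.49 in exercise libraries (median 7.82), and stood at 4.44, 4.02 and 4.57 in CD47-KO libraries. The CD47-KO libraries lay below all others. Its log2 fold change was -0.84 (SE 0.25, edgeR adjusted p = 0.0241) against sedentary and -0.86 (SE 0.25, adjusted p = 0.021) against exercise. Hk1 ran from 5.8 to 19.8 CPM in sedentary (median 9.03) and from 6.39 to 12.5 in exercise libraries (median 8.99), and stood at 4.84, 5.08 and 5.83 in CD47-KO libraries. The highest CD47-KO value just passed the lowest sedentary one, and exercise libraries lay above. Its fitted log2 fold change was -1.04 (SE 0.35, edgeR adjusted p = 0.045) against sedentary and -0.83 (SE 0.35, adjusted p = 0.103) against exercise. The call of Pfkl against sedentary was lost without any 1 of the CD47-KO libraries (adjusted p up to 0.0973), and that of Hk1 in 11 of 15 fits that left out a library (up to 0.173).

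The major forms of the same steps were lower in value but mostly not called. Pfkm, the muscle phosphofructokinase, had a log2 fold change of -0.49 (SE 0.24, edgeR adjusted p = 0.167) against sedentary and was called against exercise (-0.80, SE 0.24, adjusted p = 0.0279). That call was lost in 8 of 15 fits that left out a library (adjusted p up to 0.136). Aldoa had -0.81 (SE 0.31, edgeR adjusted p = 0.0735) and -0.73 (SE 0.31, adjusted p = 0.109). Hk2 stood at 202 to 513 CPM in sedentary and at 316, 249 and 352 in CD47-KO libraries, with overlapping groups and a log2 fold change of -0.10 (SE 0.28). Pfkp, the platelet phosphofructokinase, had -0.65 (SE 0.25), and Aldoc -0.14 with an SE of 1.16, so that nothing can be said of Aldoc at its depth of 0 to 46 counts.

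The later steps, from glyceraldehyde 3-phosphate dehydrogenase to pyruvate kinase, were lower throughout in value. Of 7 members 5 were called lower against sedentary and 4 against exercise, and all 7 had a fold change below 0 in both (medians -0.998 and -0.86). Their summed CPM was 7487.8 to 17773.5 (sedentary), 11800.4 to 14927.5 (exercise) and 5062.1 to 7484.8 (CD47-KO). Eno3 ran from 3221.6 to 6100.9 CPM in sedentary (median 5611.3) and from 5018.1 to 6228.5 in exercise libraries (median 5278.4), and stood at 2522.8, 1877.2 and 2893.1 in CD47-KO libraries, below all others. Its log2 fold change was -1.08 (SE 0.24, edgeR adjusted p = 0.00422) against sedentary and -1.17 (SE 0.24, adjusted p = 0.00229) against exercise. Eno1, the enolase of most tissues, ran from 61.2 to 104 CPM in sedentary (median 79.6) and from 68.9 to 78.6 in exercise libraries (median 73.6), and stood at 38.3, 37.4 and 45.6 in CD47-KO libraries. The CD47-KO libraries again lay below all others. Its fitted log2 fold change was -0.998 (SE 0.18, edgeR adjusted p = 0.00132) against sedentary and -0.86 (SE 0.18, adjusted p = 0.00325) against exercise. With the GC correction against sedentary the log2 fold changes were -0.71 for Eno3 (adjusted p = 0.0733) and -0.51 for Eno1 (adjusted p = 0.0705). Eno1b, a near copy of Eno1 counted as a gene of its own, was lower too (-1.03, SE 0.24, edgeR adjusted p = 0.00588), and reads shared between the 2 make both uncertain.

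Pgam2 ran from 1142.2 to 3559.4 CPM in sedentary (median 1651.2) and from 1510.9 to 2228.5 in exercise libraries (median 1785.7), and stood at 912, 678 and 743 in CD47-KO libraries. All CD47-KO libraries lay below all others, and sedentary library 6 stood far above the rest. The log2 fold change was -1.29 (SE 0.31, edgeR adjusted p = 0.00726) against sedentary and -1.22 (SE 0.31, adjusted p = 0.00934) against exercise. The second call was lost without CD47-KO library 3 (adjusted p = 0.0583). Gapdh, glyceraldehyde 3-phosphate dehydrogenase, ran from 365 to 2844.6 CPM in sedentary (median 641) and from 554 to 1133 in exercise libraries (median 903), and stood at 372, 192 and 383 in CD47-KO libraries. Here too sedentary library 6 held the highest value, while sedentary library 1 fell among the CD47-KO libraries. This is a log2 fold change of -1.64 (SE 0.55, edgeR adjusted p = 0.0437) against sedentary, lost in 11 of 15 fits that left out a library (adjusted p up to 0.159), and -1.50 (SE 0.54, adjusted p = 0.0616) against exercise. Pkm, pyruvate kinase of muscle, ran from 2116.2 to 4324.9 CPM in sedentary (median 3475.0) and from 2927 to 4572.8 in exercise libraries (median 3581.3), and stood at 2146.7, 1642.5 and 2518.5 in CD47-KO libraries. Sedentary library 1 fell among the CD47-KO values. The log2 fold change was -0.72 (SE 0.24, edgeR adjusted p = 0.0437) against sedentary, lost in 13 of 15 such fits (up to 0.167), and -0.81 (SE 0.24, adjusted p = 0.0263) against exercise. Pgk1, phosphoglycerate kinase, and Pgam1, the non-muscle mutase, stood at -0.36 and -0.37 (SE 0.24 and 0.23) against sedentary and were not called. Gapdh, Pgk1, Pgam1, Pkm, Ldha, Tpi1 and Aldoa belong to families with many processed copies in the mouse genome, so their counts depend on how reads shared with copies were treated. Exons of other annotated genes, on either strand, cover 19.5% of the exonic bases of Pfkfb2, 15.3% of Pkm, 13.0% of Gpd1, 11.5% of Gpi1 and 10.7% of Pfkm. The labels do not say whether strand was used in counting, so reads over these bases are uncertain.

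**Figure D4:**
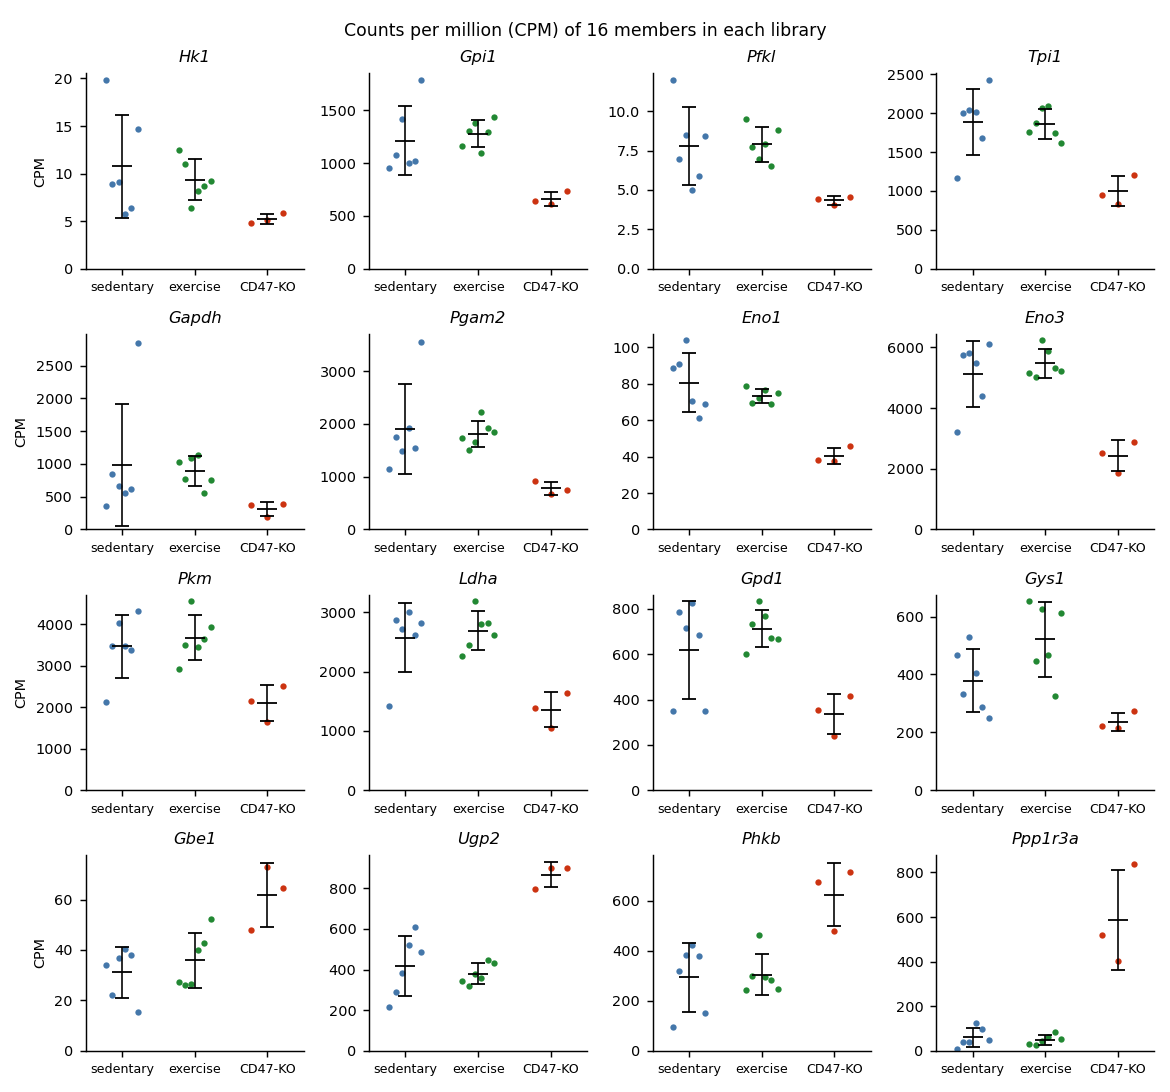
Points are CPM of 16 members in each library (6 sedentary, 6 exercise, 3 CD47-KO, left to right by library number), and bars are the mean ± SD. The axes start at 0 and differ in scale. The CD47-KO libraries lie below all others for Gpi1, Pfkl, Pgam2, Eno1 and Eno3 and above all others for Ugp2, Phkb and Ppp1r3a. The 16 were picked by their calls in these comparisons, and the share of all genes with such a separation was not counted.

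Lactate and glycerol phosphate hold 6 members, of which 2 were called lower and none higher in either comparison. Ldha ran from 1418.5 to 2998 CPM in sedentary (median 2762.4) and from 2256.1 to 3192.6 in exercise libraries (median 2705.5), and stood at 1392.6, 1048 and 1631.2 in CD47-KO libraries. Only sedentary library 1 overlapped the CD47-KO libraries. Its log2 fold change was -0.92 (SE 0.25, edgeR adjusted p = 0.0142) against sedentary and -0.99 (SE 0.25, adjusted p = 0.00943) against exercise, and both calls were lost without CD47-KO library 1 or 2 (adjusted p up to 0.0771 and 0.0599). Gpd1, the cytosolic glycerol 3-phosphate dehydrogenase that regenerates NAD for glycolysis, ran from 348 to 826 CPM in sedentary (median 702) and from 601 to 833 in exercise libraries (median 702), and stood at 354, 241 and 416 in CD47-KO libraries. Sedentary libraries 1 and 6 fell among the CD47-KO values, and exercise libraries lay above them. Its fitted log2 fold change was -0.88 (SE 0.30, edgeR adjusted p = 0.0459) against sedentary, lost in 13 of 15 fits that left out a library (up to 0.177), and -1.08 (SE 0.30, adjusted p = 0.017) against exercise.

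The other members of this group were not called. Ldhb varied most, from 96.4 to 528 CPM (sedentary), 34.7 to 396 (exercise) and 105 to 393 (CD47-KO), and its log2 fold change was 0.00 with an SE of 0.61. The summed CPM of 10 slow fibre markers (Myh7, Myl2 and others) was 24955.9 in sedentary library 1 and 8284.8 in CD47-KO library 2, where Ldhb was highest in each group, and 103.0 in exercise library 3, where Ldhb was lowest. Within the exercise group this did not hold throughout, since Ldhb was highest in library 6 (396 CPM) and the slow fibre sum in library 2 (4633.1). The part of fibre type in these values was not tested. Slc16a3 had a log2 fold change of -0.59 (SE 0.29) against sedentary and Gpd2, the mitochondrial glycerol phosphate dehydrogenase, -0.02 (SE 0.31). Slc16a1 had 0.64 (SE 0.31), and -0.27 with the GC correction.

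Fructose 2,6-bisphosphate is the signal that drives phosphofructokinase. Of its 4 bifunctional enzymes and the muscle fructose bisphosphatase Fbp2, 4 had a fold change above 0 against sedentary (median log2 fold change 0.30) and none was called. Pfkfb3, which favours synthesis, ran from 8.74 to 147 CPM in sedentary (median 98.5) and from 50.7 to 118 in exercise libraries (median 78.6), and stood at 242, 137 and 262 in CD47-KO libraries. The CD47-KO libraries lay above all exercise libraries, and sedentary library 3 passed the lowest of them. Its log2 fold change was 1.28 (SE 0.52, edgeR adjusted p = 0.0909) against sedentary and 1.45 (SE 0.52, adjusted p = 0.0576) against exercise. Unlike most members it kept its size with the GC correction (1.38, adjusted p = 0.102, and 1.58, adjusted p = 0.0606). Pfkfb2, the heart form, stood at 9.21, 9.1 and 9.5 CPM in CD47-KO libraries, above all others (4.51 to 7.45 in sedentary and 4.08 to 7.74 in exercise). It was called higher against exercise (0.73, SE 0.22, edgeR adjusted p = 0.0276), a call lost without any 1 of the CD47-KO libraries (up to 0.0983), and its log2 fold change was 0.27 with the correction. Pfkfb1 and Fbp2 had log2 fold changes of 0.30 and 0.01 against sedentary, and Pfkfb4 -0.47.

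Glycogen synthesis was the one role with calls in both directions, and this held against exercise libraries alone (1 higher and 1 lower). Against sedentary 2 of its 4 members were called higher and 0 lower. Ugp2, the enzyme that makes UDP-glucose, ran from 217 to 607 CPM in sedentary (median 435) and from 319 to 448 in exercise libraries (median 367), and stood at 798, 902 and 902 in CD47-KO libraries. The CD47-KO libraries lay above all others. In the fit the log2 fold change was 1.06 (SE 0.26, edgeR adjusted p = 0.00887) against sedentary and 1.19 (SE 0.26, adjusted p = 0.00369) against exercise. With the GC correction it changed sign, to -0.38 (adjusted p = 0.164) and -0.35 (adjusted p = 0.205). Gbe1, the branching enzyme, ran from 15.2 to 40.5 CPM in sedentary (median 35.5) and from 26.3 to 52.2 in exercise libraries (median 33.8), and stood at 48.0, 73.1 and 64.6 in CD47-KO libraries. Exercise library 6 overlapped the CD47-KO values, and the sedentary libraries lay below them. The log2 fold change was 0.99 (SE 0.29, edgeR adjusted p = 0.0255) against sedentary and 0.79 (SE 0.30, adjusted p = 0.0704) against exercise, and 0.01 and -0.16 with the correction. The call was lost without CD47-KO library 2 or 3 (adjusted p up to 0.141).

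Gys1, muscle glycogen synthase, went the other way. It ran from 249 to 530 CPM in sedentary (median 370) and from 324 to 654 in exercise libraries (median 540), and stood at 221, 214 and 272 in CD47-KO libraries. The CD47-KO libraries lay below all exercise libraries and overlapped sedentary library 6. As a log2 fold change this was -1.15 (SE 0.28, edgeR adjusted p = 0.00795) against exercise, lost without CD47-KO library 1 (adjusted p = 0.0543), and -0.68 (SE 0.27, adjusted p = 0.0875) against sedentary. Gyg, glycogenin, the protein that primes glycogen, had a log2 fold change of 0.33 (SE 0.31) against sedentary and was not called. Summed over the 4 genes, CPM was 822 to 1261.6 (sedentary), 1017.3 to 1400.3 (exercise) and 1329.6 to 1468.6 (CD47-KO), most of it from Ugp2 in the last group.

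Among the 5 members of glycogen breakdown 1 was called higher against sedentary and none against exercise. Phkb, the regulatory beta subunit of phosphorylase kinase, ran from 95.3 to 425 CPM in sedentary (median 351) and from 243 to 465 in exercise libraries (median 288), and stood at 674, 480 and 717 in CD47-KO libraries. All CD47-KO libraries lay above all others. The log2 fold change was 1.09 (SE 0.37, edgeR adjusted p = 0.0461) against sedentary and 1.03 (SE 0.37, adjusted p = 0.0574) against exercise, and 0.32 and 0.22 with the GC correction. The first was lost in 6 of 15 fits that left out a library, among them each CD47-KO library (adjusted p up to 0.141). Its partners in the same complex did not share its values: against sedentary, Phka1, the muscle alpha subunit, was at -0.11 (SE 0.36) and Phkg1, the muscle catalytic subunit, at -0.33 (SE 0.22), and neither was called. Pygm, the phosphorylase itself, ran from 6134.4 to 14311.3 CPM in sedentary libraries and stood at 7554.2, 4891.6 and 7951.1 in CD47-KO libraries, and its log2 fold changes were -0.64 (SE 0.30, edgeR adjusted p = 0.143) and -0.86 (SE 0.30, adjusted p = 0.0527). Pygb, the brain form, had -0.71 (SE 0.46) against sedentary.

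Ppp1r3a, the muscle subunit that brings protein phosphatase 1 to glycogen and to the sarcoplasmic reticulum, differed most of all members. It ran from 8.89 to 126 CPM in sedentary (median 43.5) and from 24.4 to 84.9 in exercise libraries (median 46.7), and stood at 521, 403 and 836 in CD47-KO libraries. The lowest CD47-KO library stood far above the highest of the other 12. edgeR gave a log2 fold change of 3.29 (SE 0.55, edgeR adjusted p = 0.000684) against sedentary, a 9.75-fold difference, and 3.58 (SE 0.56, adjusted p = 0.000301) against exercise, an 11.9-fold difference. Its transcript is the longest and the lowest in GC content among the 39 (6965 bases, 36.7% GC), and genes of like GC content had a median log2 fold change of 1.81 against sedentary (92 genes of 36% to 38% GC). With the GC correction the log2 fold change was 1.68 (SE 0.36, edgeR adjusted p = 0.00835) against sedentary and 1.76 (SE 0.36, adjusted p = 0.00559) against exercise, and with GC content and length corrected together 1.44 (adjusted p = 0.0405) and 1.51 (adjusted p = 0.0297).

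The level of Ppp1r3a also differed within the sedentary and exercise groups, where libraries numbered 1 to 3 stood below those numbered 4 to 6. In sedentary libraries 1 to 3 it was 8.89, 40.2 and 40.9 CPM, and in 4 to 6 it was 126, 99.0 and 46.1. In exercise libraries it was 30.9, 24.4 and 41.8, and 61.3, 84.9 and 51.7 CPM. Against sedentary libraries 1 to 3 alone the log2 fold change was 4.37 (SE 0.56, edgeR adjusted p = 0.0004055), and against 4 to 6 alone 2.75 (SE 0.41, adjusted p = 0.0016). The labels do not call these sets batches. The other targeting subunits were not called: Ppp1r3c, the most abundant of the 3, stood at 399 to 804 CPM in sedentary and 589, 437 and 731 in CD47-KO libraries, with a log2 fold change of -0.03 (SE 0.28), and Ppp1r3d had 0.15 (SE 0.33).

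Exercise against sedentary libraries gave no call among the members. With edgeR 0 of 39 were called, as were 0 of all 17975 genes (0.0%), and DESeq2 and limma-voom also called 0 members, with 9 and 0 of all genes. At an unadjusted p below 0.05 edgeR held 3 members (7.69%), beside 665 of all genes (3.70%). The members' median log2 fold change was 0.08, that of all genes -0.03, and 25 of 39 were above 0. The 5 members with the smallest p were Pfkp, Pfkfb1, Gys1, Pfkm and Slc16a1, and for each of them the groups overlapped.

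Of these 5, Pfkp ran from 4.16 to 9.12 CPM in sedentary (median 6.12) and from 3.77 to 5.42 in exercise libraries (median 4.75), with a log2 fold change of -0.51 (SE 0.20, edgeR adjusted p = 0.9998). Pfkfb1, the bifunctional enzyme of liver and muscle, ran from 32.5 to 57.6 CPM in sedentary (median 44.2) and from 41.1 to 78.1 in exercise libraries (median 57.7), with 0.48 (SE 0.20, edgeR adjusted p = 0.9998). For Gys1, whose CPM is given above, the log2 fold change was 0.46 (SE 0.22, edgeR adjusted p = 0.9998). Pfkp was lower and the other pair higher in value. Pfkm ran from 3023.9 to 5482.6 CPM in sedentary (median 4443.4) and from 4429.1 to 6472.3 in exercise libraries (median 5073.9), with 0.31 (SE 0.19, edgeR adjusted p = 0.9998). Slc16a1 ran from 15.1 to 38.4 CPM in sedentary (median 28.4) and from 22.1 to 53.2 in exercise libraries (median 32.3), with 0.36 (SE 0.26, edgeR adjusted p = 0.9998). Within libraries 1 to 3 and within 4 to 6, the log2 fold changes were -0.71 and -0.32 for Pfkp, 0.24 and 0.66 for Pfkfb1, 0.36 and 0.58 for Gys1, 0.36 and 0.25 for Pfkm, and -0.05 and 0.62 for Slc16a1, so the sign of the last rested on libraries 4 to 6.

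**Figure D5:**
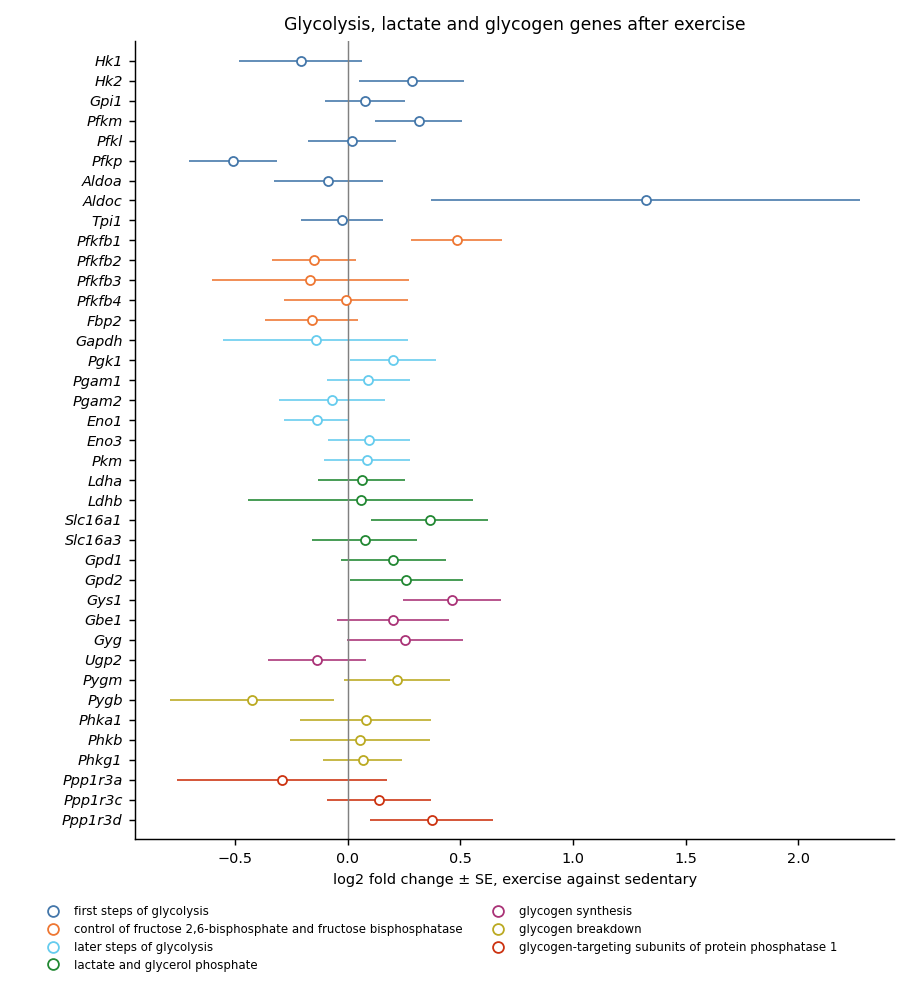
Points are log2 fold changes with their SE from edgeR for the 39 members in exercise against sedentary libraries, ordered and coloured by role. None has an adjusted p below 0.05. Apart from Aldoc, with few counts, all points lie between -0.51 and 0.48.

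Genes next to these pathways were read from lists of related genes, for which 11.9% higher and 8.75% lower over all genes is again the background against sedentary. Of 14 other isozymes and side enzymes of glycolysis 3 were called lower and none higher in CD47-KO against sedentary libraries (median log2 fold change -0.67, all genes -0.11), among them Eno1b, given above, and Pgp, a phosphatase of glycolytic side products (-0.64, SE 0.17, edgeR adjusted p = 0.0123). With the GC correction Eno1b kept its call (-0.71, adjusted p = 0.0482) and Pgp lost it (-0.19, adjusted p = 0.547). Of 25 other glycogen genes 2 were called higher and 2 lower (median -0.11), and neither share stood above that of all genes. Ppp1cb, the beta catalytic subunit of protein phosphatase 1 that binds the glycogen-targeting subunits, stood at 40.5 to 236 CPM in sedentary and at 423 to 460 in CD47-KO libraries (1.74, SE 0.47, adjusted p = 0.0161). Pgm2l1, which makes glucose 1,6-bisphosphate, was also higher (1.89, SE 0.33, adjusted p = 0.000953), and Ppp1ca, the alpha catalytic subunit (-0.69, SE 0.17, adjusted p = 0.00988), and the kinase gene Gsk3a (-0.61, SE 0.19, adjusted p = 0.0282) were lower. Their transcripts have 40.8% and 40.9% GC for the pair that was higher (Ppp1cb and Pgm2l1), and 56.1% and 59.8% for the pair that was lower. With the GC correction the log2 fold change of Ppp1cb was 0.63 (adjusted p = 0.316) and that of Pgm2l1 0.76 (adjusted p = 0.0509), while Ppp1ca had -0.25 (adjusted p = 0.437) and Gsk3a -0.11 (adjusted p = 0.828), so that all 4 calls were lost. Calm2 of the same list was called lower with the correction alone (-1.44, edgeR adjusted p = 0.0200). Without it Calm2 had -0.58 (edgeR adjusted p = 0.354). Against exercise the corrected fit called 1 gene of this list higher and 1 lower.

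Of 12 partners of lactate and pyruvate transport and of the redox shuttles none was called against sedentary by edgeR. Against exercise 2 were lower (beside 8.34% of all genes), Bsg and Slc2a4. Bsg, the chaperone of the monocarboxylate transporters, had -0.64 (SE 0.20, edgeR adjusted p = 0.0334). Slc2a4, the insulin-responsive glucose transporter, had -0.51 (SE 0.16, edgeR adjusted p = 0.0351). Neither was called with the GC correction. Of 10 genes of the pentose phosphate pathway 1 was higher (Rpe) and 3 were lower (Taldo1, Tkt and Pgls) against sedentary. Taldo1, transaldolase, stood at 45.0 to 59.7 CPM in sedentary and at 25.8 to 27.9 in CD47-KO libraries (-0.95, SE 0.17, edgeR adjusted p = 0.001), and it was called with the GC correction too (-0.64, adjusted p = 0.0307). Prps1 of the same list was called lower with the correction alone (-0.63, edgeR adjusted p = 0.0363), and had -0.07 (adjusted p = 0.860) without it. Rpe, ribulose phosphate epimerase, was higher (1.91, SE 0.34, adjusted p = 0.00103, and 0.51, adjusted p = 0.288, with the correction). Of 5 tested genes of gluconeogenesis 2 were lower, G6pc3 (-0.997, SE 0.22, edgeR adjusted p = 0.00517) and Slc37a4, the glucose 6-phosphate carrier (-1.25, SE 0.39, adjusted p = 0.0322). With the GC correction both calls were lost (-0.52, adjusted p = 0.194, and -0.84, adjusted p = 0.210), as were those of Tkt and Pgls (adjusted p = 0.231 and 0.380). In exercise against sedentary libraries none of these lists held a call.

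Markers of fibre and cell types were read beside these results, again with 11.9% higher and 8.75% lower over all genes as the background against sedentary. Of 10 fast fibre genes 2 were called lower and none higher against sedentary, Mylpf (-1.58, SE 0.25, edgeR adjusted p = 0.000477, and -1.34, adjusted p = 0.00473, with the GC correction) and Actn3 (-0.99, SE 0.31, adjusted p = 0.0325, and -0.54, adjusted p = 0.338, with it). Myh1 of the same list was called higher with the correction alone (1.24, adjusted p = 0.0368). The summed CPM of the 10 was 107718.3 to 228520.1 (sedentary), 145679.9 to 263306.8 (exercise) and 96883.9 to 147896.7 (CD47-KO). Of 8 general muscle fibre genes 3 were lower, Acta1, Des and Ckm, and 1 was higher, Neb, with summed CPM of 69119.6 to 105561.9, 82621.7 to 102755.3 and 54148.5 to 64404.7 in the same order, so that the CD47-KO libraries lay below all others. All 4 calls were lost with the GC correction (adjusted p = 0.113, 0.261, 0.180 and 0.0627 for Acta1, Des, Ckm and Neb). None of 10 slow fibre genes was called. Of 6 markers each, none was called against sedentary for red cells and fat cells, and 1 was called for macrophages (Mrc1, higher), Schwann cells (Mbp, lower), endothelium (Tie1, lower), and fibroblasts and tendon (Pdgfra, higher). None of these 4 was called with the GC correction. For each of these 6 lists the range of summed CPM in CD47-KO libraries overlapped that in sedentary libraries. No marker gene was at 0 in every library. The part of fibre content in the members' values was not tested. Summed over the 39 members, CPM was 33963.9 to 68348.3 (sedentary), 52394.5 to 70126.5 (exercise) and 28295.5 to 40715.9 (CD47-KO), and sedentary library 1, the lowest of its group here, was also the lowest for the fast fibre genes.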

How the data were processed

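The authors deposited raw read counts per gene symbol for 15 libraries of mouse skeletal muscle. Per the labels' protocols these were made from total RNA with a NEBNext Ultra kit, and per the submitters' processing notes the tools were Trimmomatic 0.30, HISAT2 2.0.1 and HTSeq 0.6.1 on build GRCm38. The strand setting, the treatment of reads with several matches and the counting of repeats are not given in the sources used here. The counts 4, 8 and 12 made up 41.7% to 50.2% of all values from 1 to 15 in sedentary and exercise libraries. In CD47-KO libraries they made up 32.1% to 33.6%, below all others. The reason is not given in the sources used here. What this difference means for the comparisons with CD47-KO libraries was not tested.

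The 39 members and the lists of related genes were chosen with earlier results of these data known. Counts were fitted with edgeR 4.0.16 (quasi-likelihood, robust, TMM factors, R 4.3.3) on 17975 genes left by its filter on low counts, with all 15 libraries in 1 fit so that the 3 groups share 1 estimate of the spread, and p-values were adjusted over all genes by Benjamini and Hochberg. A call is an adjusted p below 0.05, and the SE is the log2 fold change divided by the root of F. CPM uses the TMM factors, and CPM per kb divides by the longest protein-coding transcript (GENCODE vM21). The GC correction took the lowess trend (span 0.3) of each library's log2 CPM (prior count 2), less the mean of all libraries, on transcript GC content as an offset in the same fit. Alternatives used DESeq2 1.42.0, limma 3.58.1, other scalings and filters, and fits that left out libraries.

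Values are printed for at most 16 members called in a CD47-KO comparison, by smallest adjusted p, for the 5 members with the smallest p after exercise, and for up to 4 genes of each related list. Other values in the text, such as those of Pfkfb2, Pfkfb3, Ldhb, Calm2 and Prps1, were chosen after they were seen. Protein sequences were not used here. For 1 gene of the related lists the result is not reported here.

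Replicate numbers in the labels are shared between groups. In the submitters' descriptions, some exercise libraries carry a different number from that in their label. Deviations of same-numbered exercise and sedentary libraries were positively correlated (0.273 to 0.539 over 10429 genes in 6 pairs). Pairs with different numbers were not compared, so these correlations do not show that the numbers mark pairs. The part of differences between the sets of numbers in these correlations was not tested. The labels state no pairing, and same-numbered libraries were taken as pairs for the alternative with the number as a block. No 2 libraries of the same group were copies: the closest pair differed by a chi-square of 78.1 per degree of freedom. Libraries of different groups were not compared in this way.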

Additional observations from a re-analysis of the deposited data

Results flagged for a closer look

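In 78 groups of 6 libraries, 7 members had a library whose gap to the next was large for the range of its group (Dixon's test at the 95% level), and chance gives about 1 in 20. In sedentary library 1, Fbp2 (44.1 CPM) and Ldha (1418.5 CPM) were far below the other 5 and Ldhb (528.0 CPM) far above. In sedentary library 6, Gapdh (2844.6 CPM) and Pgam2 (3559.4 CPM) were far above the others. Phka1 was low in exercise library 1 (433.0 CPM) and Phkb high in exercise library 3 (465.0 CPM). Without sedentary libraries 1 and 6 the log2 fold change of Ppp1r3a in CD47-KO against sedentary libraries was 2.98 by edgeR.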

How the results depend on the processing

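For exercise against sedentary, no alternative called a member, while over all genes DESeq2 called 9 and the GC correction 2. Slc16a1 changed sign within libraries 1 to 3 (-0.05). For CD47-KO against sedentary, 15 members became 6 with only the groups compared in the fit, 1 with the GC correction, 1 with GC and length corrected, and 5 to 15 when 1 library was left out. Of all genes, 3718 became 1495 with the GC correction, 1580 with GC and length, 5588 with libraries 1 to 3 of the sedentary and exercise groups, and 2178 to 3881 without 1 library. For CD47-KO against exercise, 14 members became 1 with either correction, 22 without sedentary libraries 1 and 6, and 5 to 20 without 1 library, and 3698 genes became 1551 with the GC correction, 1788 with GC and length, and 2292 to 4563 without 1 library. The cause of these shifts was not tested, beyond fewer libraries in the fit where some were left out.

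The log2 fold change of Ugp2 against sedentary was -0.38 with the GC correction, with GC and length, and with both the replicate block and GC correction. Against exercise it was -0.35, -0.33 and -0.36 in that order. Gbe1 against sedentary was -0.02 with GC and length, and against exercise -0.16, -0.17 and -0.10. In the comparisons for which members were named by rule, no other fold change changed sign under the alternatives run, and in CD47-KO against sedentary 363 kept their side of the threshold, 143 lost the call and 2 gained it. Total counts alone moved the median log2 fold change of all genes against exercise from -0.08 to 0.04.

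The replicate block changed no call of exercise against sedentary. For CD47-KO libraries, too, only a number is known to be shared with the others (correlations of -0.192 to 0.309). With the block, 14 members were called against sedentary (5 higher, 9 lower) and 19 against exercise, and with block and GC correction 2 in each (Ppp1r3a with Eno1 against sedentary and with Gys1 against exercise), with 2397 genes called against sedentary. The set of numbers as a block was run for exercise against sedentary alone. Depth limits Aldoc (0 to 46 counts), and 3 CD47-KO libraries limit the precision of every comparison with them.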
